A study of Mus musculus with 9 samples.

Results

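The 9 complement transcripts described here are *C1qa*, *C1qb*, *C1qc*, *C3*, *C4b*, *C3ar1*, *C5ar1*, *Cfb*, and *Cfp*. They were chosen by gene symbol, and all 9 were found among the 50559 genes listed for each library and among the 16618 genes that passed the filter on low counts. RNA had been sequenced from CD45+CD11b+ myeloid cells sorted from the quadriceps of *mdx* mice, which lack dystrophin and model Duchenne muscular dystrophy. All mice carried the *mdx* mutation and were collected at 4.5 weeks of age after 7 days of treatment, with no healthy mice among the sequenced samples. The vehicle group drank a sucralose-flavored water gel (MediDrop), the spironolactone group received this mineralocorticoid receptor antagonist in the same gel, and the prednisolone group received this glucocorticoid in it. Each group had 3 libraries, 9 in all, and each library held cells pooled from the quadriceps pairs of 3 mice. Every group included both sexes, and the mix within a pool is not given in the sources used here. The sort took every cell positive for both markers, so that macrophages, monocytes, neutrophils, and some dendritic cells could all be present. In such bulk samples, fewer cells of a type cannot be told apart from less RNA per cell.

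Complement is a cascade of plasma and tissue proteins that tags debris, dying cells, and microbes for removal and calls in inflammatory cells. The classical pathway starts when C1q, built from the A, B, and C chains, binds its target. The classical and lectin pathways then act through C4 and C2, and the alternative pathway acts through factor B, encoded by *Cfb*, with properdin, encoded by *Cfp*, as its stabilizer. All routes meet at C3, whose cleavage releases the anaphylatoxin C3a, and later cleavage of C5 releases C5a. C3a is sensed by C3AR1 and C5a by C5AR1 on myeloid cells. Macrophages are a main source of C1q in tissues, whereas the liver makes most plasma C3 and C4. In dystrophic muscle, macrophages clear necrotic fibers, and complement is one of the systems that mark such fibers.

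Between 31469815 and 32943512 counts per library fell on genes. All 6 listed macrophage and monocyte markers (*Ptprc*, *Itgam*, *Cd68*, *Csf1r*, *Fcgr1*, and *Lyz2*) were detected in every group. Of these, only *Ptprc* and *Itgam* encode the sorted proteins, CD45 and CD11b. The summed level was 15030 to 18260 CPM (counts scaled to a common library size after TMM normalization). *Lyz2* alone stood at 8204 to 12230 CPM. Vehicle replicate 1 stood apart in the 6 classical monocyte markers, which summed to 1096 CPM there and to 2379 and 2567 CPM in the other vehicle pools. Vehicle replicate 3 stood apart in the 8 neutrophil markers, with a sum of 3022 CPM beside 661 and 993 CPM, and in the 5 mast cell and eosinophil markers, with 60.6 CPM beside 27.0 and 29.1 CPM. Markers of other cell types were also detected. Over the 9 libraries, sums were 635 to 1218 CPM for fibroblast, 182 to 568 CPM for skeletal muscle, and 46.8 to 158.0 CPM for endothelial markers. They were 30.8 to 256 CPM for erythroid markers and 1.41 to 10.5 CPM for lymphocyte markers.

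The *C1q* genes lie next to each other on mouse chromosome 4 on the same strand, with no coding gene between them. *C1qa* spans chr4:136623223-136626161, *C1qc* spans chr4:136616466-136620376, and *C1qb* spans chr4:136606009-136613511, on GRCm39 (mm39) with GENCODE annotation. The gap between *C1qa* and *C1qc* is 2846 bases, and that between *C1qc* and *C1qb* is 2954 bases. Because the 3 genes moved together across libraries, the 250 bases before each transcript start are shown, 5′ to 3′ on the gene's strand. Capitals mark the motif matches found by searching both strands.
C1qa (GRCm39, chr4:136626162-136626411, minus strand): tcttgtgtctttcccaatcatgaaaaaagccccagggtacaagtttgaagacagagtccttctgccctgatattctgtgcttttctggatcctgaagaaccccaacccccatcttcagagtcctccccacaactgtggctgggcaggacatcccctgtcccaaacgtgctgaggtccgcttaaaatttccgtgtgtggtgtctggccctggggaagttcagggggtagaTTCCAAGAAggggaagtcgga
C1qb (GRCm39, chr4:136613512-136613761, minus strand): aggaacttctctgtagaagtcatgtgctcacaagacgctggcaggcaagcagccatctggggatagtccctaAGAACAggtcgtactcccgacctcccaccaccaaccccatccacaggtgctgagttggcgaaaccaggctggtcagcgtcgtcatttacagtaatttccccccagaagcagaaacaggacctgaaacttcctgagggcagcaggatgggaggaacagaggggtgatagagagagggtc
C1qc (GRCm39, chr4:136620377-136620626, minus strand): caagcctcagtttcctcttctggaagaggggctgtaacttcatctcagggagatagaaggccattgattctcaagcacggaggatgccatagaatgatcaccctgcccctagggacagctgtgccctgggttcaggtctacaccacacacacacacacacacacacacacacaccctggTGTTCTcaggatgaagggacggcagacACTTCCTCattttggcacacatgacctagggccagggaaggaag
The *C1qa* window holds TTCCAAGAA, a match to TTCNNNGAA (a STAT-type motif), from 21 to 13 bases before the start. The *C1qb* window holds AGAACA, the reverse complement of TGTTCT, 1 arm of the glucocorticoid response element, from 178 to 173 bases before the start. The *C1qc* window holds TGTTCT from 71 to 66 bases and ACTTCCTC, the reverse complement of the PU.1 motif GAGGAAGT, from 44 to 37 bases before the start. None of the marked matches overlap. Among 21757 promoter windows of the same length, 14.3% held TGTTCT on either strand, 7.70% the STAT-type motif, and 2.08% the PU.1 motif. The whole palindromic element (AGAACA and TGTTCT with 3 bases of any kind between them) was found in 0 of these windows. Among the other 6 members, the only match was TGACTCA (AP-1, in 4.03% of windows) from 16 to 10 bases before the start of *C3ar1*, and neither the interferon-stimulated response element (GAAA, 2 bases of any kind, GAAA, in 3.32% of windows) nor the NF-κB motif (GGGAC followed by TTTCC, in 0.124%) was found in a member. A match describes letters in a window and is not a bound site.

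*C1q* dominated complement RNA in these cells. Levels between genes are compared in TPM, which also scales each count by the exon length of the canonical transcript. Mean levels over the 9 libraries were 2228 ± 388 TPM (SD, *n* = 9) for *C1qa*, 1783 ± 334 for *C1qb*, and 1450 ± 255 for *C1qc*. Properdin RNA followed at 711 ± 39.4 TPM. The anaphylatoxin receptors came next, with 351 ± 34.9 TPM for *C3ar1* and 198 ± 46.0 TPM for *C5ar1*. The components cleaved during activation were lower, with 123 ± 34.1 TPM for *C3*, 67.8 ± 22.8 TPM for *Cfb*, and 8.36 ± 1.90 TPM for *C4b*. Within each of the 9 libraries, every gene in this order was above the next. Across libraries, however, the ranges overlapped for *C1qa* and *C1qb*, *C1qb* and *C1qc*, *C5ar1* and *C3*, and *C3* and *Cfb*. When the summed length of all annotated exons was used instead, *C1qc* (1642 TPM) came before *C1qb* (1265 TPM), and the other places stayed. The members together took 0.442% to 0.640% of all counts on genes, and the *C1q* genes alone took 0.264% to 0.475%. *C1qb* stood at the 99.7 percentile of mean CPM among tested genes, whereas *C4b* stood at the 57.0 percentile.

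**Figure D1:**
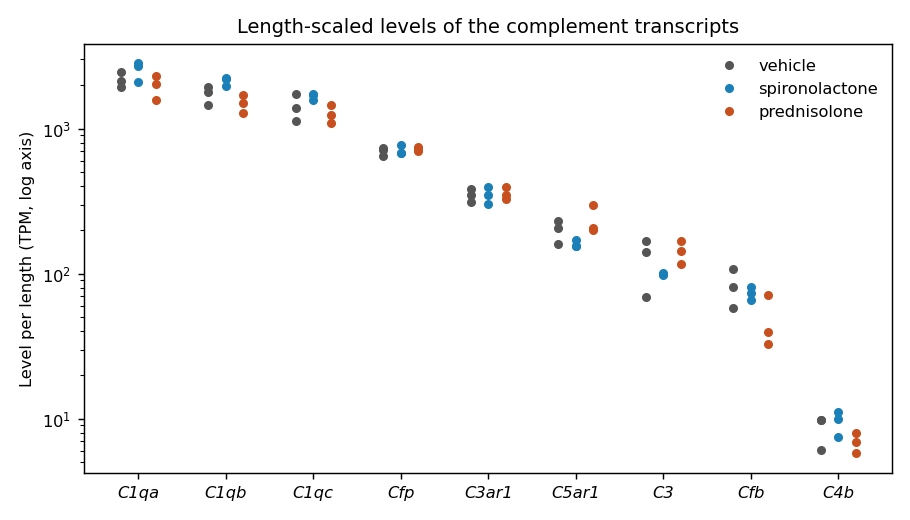
Level per length (TPM, log axis) of each complement transcript in the 9 libraries, with 1 point per library colored by group and genes ordered by mean. The *C1q* chains lie between 1086 and 2815 TPM, and *C4b* lies between 5.78 and 11.1 TPM.

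For the classical pathway recognition genes, the question was whether either drug shifted *C1q* RNA in the sorted cells. *C1qb* stood at 1827, 1856, and 1499 CPM in the vehicle pools (replicates 1, 2, and 3). It stood at 1885, 2282, and 2307 CPM in the spironolactone pools and at 1226, 1385, and 1606 CPM in the prednisolone pools. Every spironolactone pool was above every vehicle and every prednisolone pool, and prednisolone overlapped vehicle only through prednisolone replicate 3 and vehicle replicate 3. *C1qb* was higher with spironolactone than with prednisolone (means 2158 ± 237 and 1406 ± 191 CPM, SD, *n* = 3 each). Its log2 fold change was 0.62 ± 0.13 (SE, 95% interval 0.35 to 0.89), with an adjusted *P* of 0.0154 by the quasi-likelihood test of edgeR with Benjamini-Hochberg adjustment.

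*C1qc* stood at 1187, 1053, and 855.9 CPM with vehicle, at 1107, 1302, and 1310 CPM with spironolactone, and at 764.8, 846.9, and 994.5 CPM with prednisolone. All 3 spironolactone pools were again above all 3 prednisolone pools, while each drug overlapped vehicle. The difference between the drugs was 0.51 ± 0.13 in log2 fold change (95% interval 0.23 to 0.80, edgeR adjusted *P* = 0.0408). *C1qa* stood at 987.7, 949.4, and 858.9 CPM with vehicle, at 873.6, 1239, and 1215 CPM with spironolactone, and at 649.6, 804.8, and 931.8 CPM with prednisolone. Here spironolactone replicate 1 lay below prednisolone replicate 3, so that the groups overlapped, and the log2 fold change of 0.48 ± 0.15 missed the threshold (edgeR adjusted *P* = 0.0799). It passed in 3 of 12 alternatives, DESeq2 on all libraries (0.0222), DESeq2 on the drug groups alone (0.0126), and edgeR with no filter on low counts (0.00147).

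Of the 9 members, 2 (*C1qb* and *C1qc*) were called higher with spironolactone than with prednisolone and 0 lower, against 5.17% of all tested genes called in either direction and 2.38% called higher. These calls rested on few pools. *C1qb* lost its call without spironolactone replicate 2 (edgeR adjusted *P* = 0.0612), spironolactone replicate 3 (0.0734), prednisolone replicate 1 (0.0795), or prednisolone replicate 2 (0.0724), with a log2 fold change of 0.53 to 0.61 in these fits. *C1qc* lost its call without the same pools (adjusted *P* = 0.122, 0.144, 0.168, and 0.140) and without vehicle replicate 2 (0.0525), and *C1qa* gained one without spironolactone replicate 1 (0.0244). *C1qc* also missed the threshold when the level of *Xist*, a female-expressed RNA that ranged from 65.3 to 712 CPM among the pools, was a covariate (0.0593), with library totals alone as scaling (0.0595), and with the replicate numbers as a block (0.0511), whereas *C1qb* passed in each of these fits.

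Against vehicle, the *C1q* genes passed the threshold with neither drug. With prednisolone, the log2 fold changes were -0.23 ± 0.15 for *C1qa*, -0.30 ± 0.13 for *C1qb*, and -0.25 ± 0.13 for *C1qc*, with adjusted *P* of 0.542, 0.300, and 0.431 by edgeR. With spironolactone, they were 0.25 ± 0.15, 0.32 ± 0.13, and 0.27 ± 0.13, with adjusted *P* of 0.653, 0.449, and 0.576. Leaving out 1 pool kept the signs but moved some values by over 1.5 times. With prednisolone, *C1qa* was -0.10 without prednisolone replicate 1 and -0.36 without prednisolone replicate 3, and *C1qc* was -0.14 without vehicle replicate 1 and -0.16 without prednisolone replicate 1. With spironolactone, *C1qa* was 0.40 without spironolactone replicate 1 and 0.16 without spironolactone replicate 2, and *C1qc* was 0.14 without vehicle replicate 3. The vehicle pools are shared by both comparisons. Vehicle means of 932 ± 66.2 CPM for *C1qa*, 1727 ± 198 CPM for *C1qb*, and 1032 ± 167 CPM for *C1qc* lay between those of the drug groups. The calls of *C1qb* and *C1qc* were therefore made between the drugs and not between a drug and vehicle.

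Summed over its chains, *C1q* reached 3214 to 4002 CPM with vehicle, 3866 to 4832 CPM with spironolactone, and 2641 to 3533 CPM with prednisolone. The chains kept close proportions in the 9 libraries. *C1qa* made up 37.5% to 42.8% of the *C1q* TPM, *C1qb* 31.3% to 34.7%, and *C1qc* 25.1% to 28.2%. Over the 9 libraries, *C1qb* and *C1qc* correlated with Pearson's *r* = 0.97 (exact permutation *P* = 4.13e-05, adjusted over 36 member pairs 0.00149) and Spearman's *ρ* = 0.95 (exact permutation *P* = 0.000353, adjusted 0.00900). Without the 2 libraries farthest from the median of *C1qb* (prednisolone replicates 1 and 2), *r* was 0.94, and with each library taken relative to its group mean *r* was 0.94. *C1qa* correlated with *C1qb* at *r* = 0.94 and with *C1qc* at *r* = 0.92 (exact permutation *P* = 0.000223 and 0.000149, each 0.00268 after adjustment), with *ρ* of 0.87 and 0.93 (exact permutation *P* = 0.00451 and 0.000750, adjusted 0.0406 and 0.00900). Without prednisolone replicate 1 and spironolactone replicate 2, these *r* were 0.88 and 0.86. The libraries of a group share a treatment, so the points are not fully independent.

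Markers of several cell types differed between the drug groups beside *C1q*, and their part in the *C1q* difference was not tested. The 6 classical monocyte markers summed to 1494 to 1761 CPM with spironolactone and 2065 to 2805 CPM with prednisolone, with 0 of 6 called. The 8 F4/80hi macrophage markers summed to 1460 to 1656 CPM and 1553 to 1671 CPM, with 1 called higher and 2 called lower with spironolactone than with prednisolone. Neutrophil markers summed to 1020 to 2198 CPM with spironolactone and 747 to 946 CPM with prednisolone, with 0 of 8 called. The 5 endothelial markers (102.7 to 158.0 CPM against 58.9 to 82.0 CPM, 2 called higher), the 6 lymphocyte markers (7.21 to 10.5 CPM against 1.41 to 2.97 CPM, 3 called higher), and the 3 erythroid markers (153 to 256 CPM against 30.8 to 69.2 CPM, 2 called higher) had higher sums in every spironolactone pool than in any prednisolone pool, though single markers such as *Kdr* and *Cd3e* overlapped. The 6 macrophage and monocyte markers summed to 15500 to 17140 CPM with spironolactone and 17010 to 18260 CPM with prednisolone (1 called lower, *Itgam*). The 5 mast cell and eosinophil markers summed to 22.5 to 44.4 CPM and 19.2 to 24.0 CPM (1 of 4 tested called higher, *Siglecf*). No marker on these lists had 0 counts throughout a group.

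**Figure D2:**
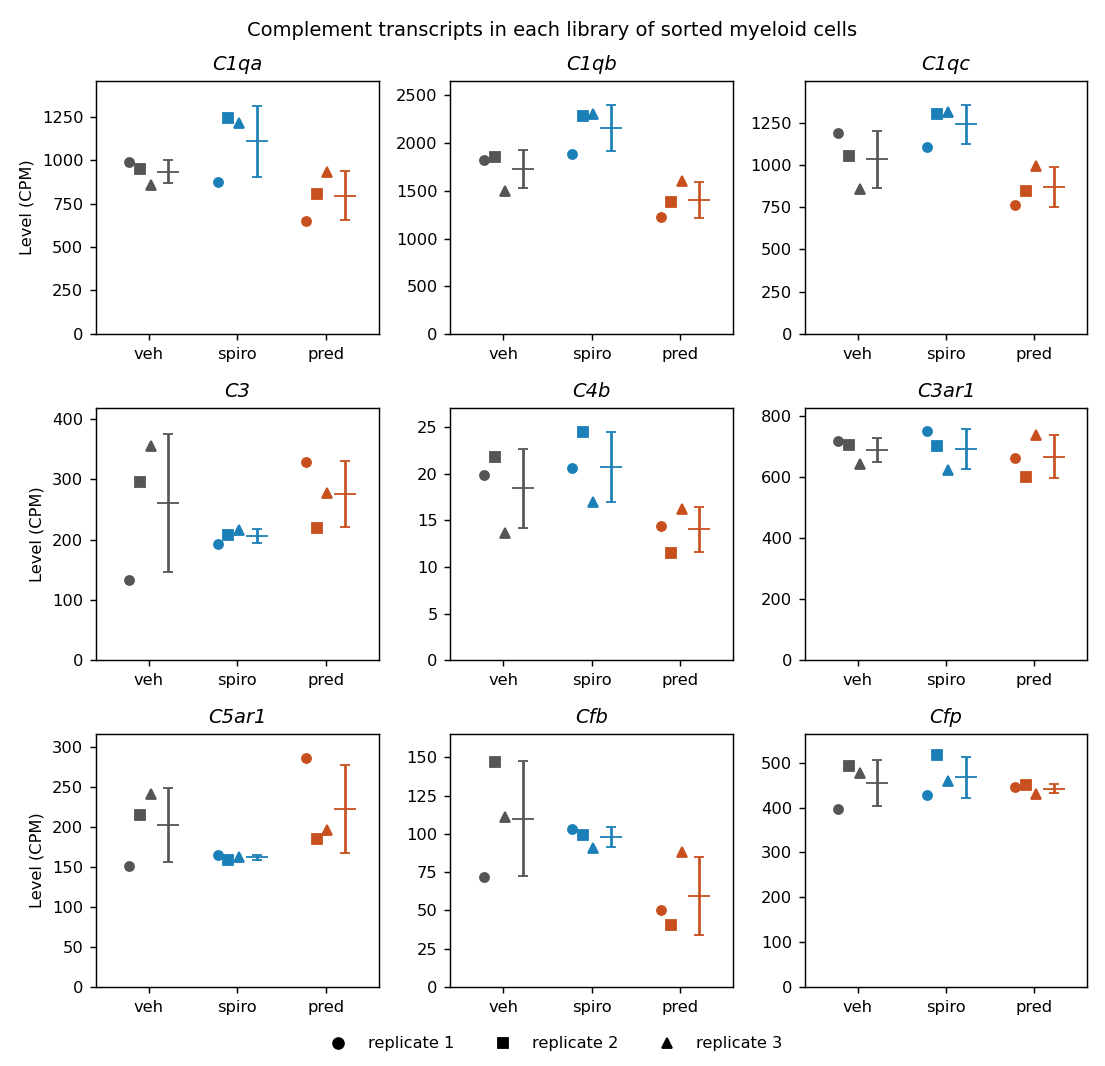
Level (CPM) of each complement transcript in the vehicle (veh), spironolactone (spiro), and prednisolone (pred) pools, with symbols for replicates and a bar for the mean ± SD (*n* = 3). All spironolactone pools lie above all prednisolone pools for *C1qb*, *C1qc*, *C4b*, and *Cfb* and below them for *C3* and *C5ar1*.

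*C4b* encodes the mouse C4 used by the classical and lectin pathways. It stood at 19.9, 21.8, and 13.7 CPM with vehicle, at 20.6, 24.4, and 17.0 CPM with spironolactone, and at 14.4, 11.5, and 16.2 CPM with prednisolone. All 3 spironolactone pools were above all 3 prednisolone pools by a narrow margin, and vehicle replicate 3 lay within the prednisolone range. The log2 fold change between the drugs was 0.56 ± 0.19 (95% interval 0.15 to 0.96) and missed the threshold (edgeR adjusted *P* = 0.101), and those against vehicle were -0.39 ± 0.19 with prednisolone (0.374) and 0.16 ± 0.19 with spironolactone (0.861). The difference between the drugs passed in 3 of 12 alternatives, edgeR and DESeq2 on the drug groups alone (adjusted *P* = 0.0415 and 0.0192) and edgeR with no filter on low counts (0.00341). Without vehicle replicate 2, the prednisolone difference from vehicle was -0.25, and without 1 pool the spironolactone difference ranged from -0.015 (vehicle replicate 3) to 0.30 (vehicle replicate 2). *C4a*, a near-identical neighbor, stood at 1.06 CPM on average, and reads that fit both copies were not counted.

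*C3*, the central component, had a biological coefficient of variation of 0.279 in the edgeR fit, whereas that of the *C1q* chains was 0.125 to 0.141. It stood at 133.0, 295.1, and 354.2 CPM in the vehicle pools, at 192.8, 208.0, and 216.4 CPM in the spironolactone pools, and at 328.7, 219.1, and 276.9 CPM in the prednisolone pools. Vehicle replicate 1 held the lowest value of all 9 libraries and vehicle replicate 3 the highest, whereas the spironolactone pools lay close together just below the prednisolone pools. The part of the high neutrophil markers of vehicle replicate 3 in its *C3* level was not tested. No difference passed the threshold by edgeR, with log2 fold changes of 0.08 ± 0.33 for prednisolone against vehicle (adjusted *P* = 0.948), -0.34 ± 0.33 for spironolactone against vehicle (0.832), and -0.42 ± 0.33 between the drugs (0.516, 95% interval -1.19 to 0.35). The difference between the drugs passed in 2 of 12 alternatives, DESeq2 on the drug groups alone (adjusted *P* = 0.0111) and edgeR with no filter on low counts (0.00319). Without vehicle replicate 1, the prednisolone difference turned to -0.24, and without prednisolone replicate 1 it turned to -0.07. The spironolactone difference from vehicle was -0.66 without vehicle replicate 1 and -0.06 without vehicle replicate 3, and the difference between the drugs was -0.27 without prednisolone replicate 1.

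The anaphylatoxin receptors are described in turn, and neither passed the threshold in any comparison of the reported edgeR fit. *C5ar1*, the C5a receptor, stood at 151.3, 214.8, and 241.8 CPM with vehicle, at 165.0, 159.3, and 162.9 CPM with spironolactone, and at 286.5, 185.7, and 196.5 CPM with prednisolone. As with *C3*, vehicle replicate 1 was the lowest library, and every spironolactone pool was below every prednisolone pool. The log2 fold change between the drugs was -0.46 ± 0.18 (95% interval -0.86 to -0.05, edgeR adjusted *P* = 0.168), and without prednisolone replicate 1 it was -0.24. It passed in the same pair of alternatives as *C3* (DESeq2 on the drug groups alone, adjusted *P* = 0.0101, and edgeR with no filter, 0.000912). Against vehicle it was -0.32 ± 0.18 with spironolactone (0.648) and 0.14 ± 0.18 with prednisolone (0.803), and the prednisolone value turned negative without vehicle replicate 1 (-0.03) or prednisolone replicate 1 (-0.08). The spironolactone value was -0.49 without vehicle replicate 1 and -0.18 without vehicle replicate 3.

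*C3ar1*, the C3a receptor, stood at 716.9, 706.3, and 643.6 CPM with vehicle, at 752.6, 703.5, and 622.8 CPM with spironolactone, and at 661.2, 600.5, and 739.2 CPM with prednisolone. The groups overlapped fully, with group means of 667 to 693 CPM. The log2 fold change was -0.05 ± 0.11 for prednisolone and 0.01 ± 0.11 for spironolactone against vehicle, and the 95% interval of the difference between the drugs ran from -0.17 to 0.28 (edgeR adjusted *P* = 0.817). The sign of these small differences changed with the pools included.

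*C3* and *C5ar1* moved together over the 9 libraries, with *r* = 0.88 (exact permutation *P* = 0.00176, adjusted over 36 pairs 0.0159) and *ρ* = 0.93 (exact permutation *P* = 0.000750, adjusted 0.00900). Without vehicle replicates 1 and 3, which were farthest from the median of *C3*, *r* was 0.92, and relative to group means it was 0.88. The classical monocyte markers were lowest in vehicle replicate 1, as was each of these genes, but did not follow their order within every group. They summed to 1096, 2567, and 2379 CPM in the vehicle pools, to 1494, 1761, and 1745 CPM in the spironolactone pools, and to 2805, 2065, and 2582 CPM in the prednisolone pools, and their part in the levels of *C3* and *C5ar1* was not tested. *C1qc* and *C5ar1* ran in opposite directions (*r* = -0.84, exact permutation *P* = 0.00429, adjusted 0.0309). Their *ρ* of -0.82 did not pass after adjustment (exact permutation *P* = 0.0108, adjusted 0.0775), and *r* was -0.74 without prednisolone replicate 1 and spironolactone replicate 3.

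**Figure D3:**
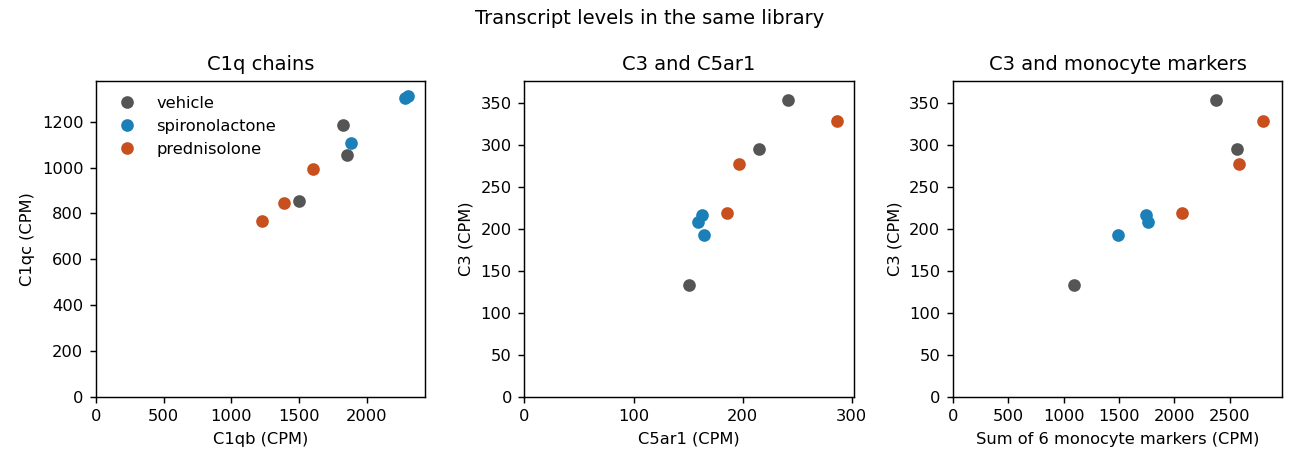
Levels (CPM) in the same library, with 1 point per library colored by group, for *C1qb* and *C1qc* (left), *C5ar1* and *C3* (middle), and the sum of 6 classical monocyte markers and *C3* (right). Vehicle replicate 1 is the point with the lowest *C3* (133.0 CPM) and the lowest monocyte sum (1096 CPM).

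Of the alternative pathway genes, *Cfb*, encoding the factor B protease, had the most negative fitted change among members with prednisolone. It stood at 71.9, 146.8, and 111.2 CPM with vehicle, at 103.4, 99.4, and 91.1 CPM with spironolactone, and at 50.1, 40.2, and 88.4 CPM with prednisolone. The lower prednisolone pools were well under all vehicle pools, but prednisolone replicate 3 lay above vehicle replicate 1, so that these groups overlapped. All spironolactone pools were above all prednisolone pools. The log2 fold change with prednisolone against vehicle was -0.88 ± 0.34 (95% interval -1.69 to -0.08, edgeR adjusted *P* = 0.303). It was 0.72 ± 0.34 between the drugs (adjusted *P* = 0.272), with 1.11 without prednisolone replicate 3 and a call only in edgeR with no filter on low counts (3.51e-08), and -0.17 ± 0.34 with spironolactone against vehicle (0.936), which turned to 0.10 without vehicle replicate 2 and was -0.40 without vehicle replicate 1. *Cfb* overlaps *Nelfe* on the opposite strand, and the strand setting of the counting was not stated, so that reads of the overlap cannot be assigned with certainty. In the GENCODE annotation used for positions, *C1qb*, *C1qc*, *C3*, *C4b*, and *Cfp* each have a predicted gene on the opposite strand. The annotation release used for counting was not given and may lack these predicted genes. Where it holds them, the same uncertainty applies to these members. On their own strand, *Cfb* overlaps *Gm20547* and *Mir6972*, and *C3* overlaps *Mir6978*. These same-strand overlaps do not depend on the strand setting.

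*Cfp*, encoding properdin, varied little between the pools. It stood at 396.4, 492.2, and 477.5 CPM with vehicle, at 427.3, 516.4, and 458.4 CPM with spironolactone, and at 444.9, 449.9, and 431.0 CPM with prednisolone. The groups overlapped, and the spread among prednisolone pools was only 9.77 CPM (SD). The log2 fold changes were -0.04 ± 0.10 with prednisolone, 0.04 ± 0.10 with spironolactone, and 0.08 ± 0.10 between the drugs (95% interval -0.14 to 0.30, edgeR adjusted *P* = 0.708). The sign of both differences from vehicle changed with the pools included.

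Counted over all members, prednisolone against vehicle gave 0 calls of 9 by edgeR, against 1.76% of all genes. Likewise, 0 were called by DESeq2 and limma-voom, and 2 (*C1qb* and *Cfb*, both lower) had an unadjusted *P* under 0.05, against 14.2% of all genes in either direction and 7.07% lower. In this comparison, 7 members had a log2 fold change below 0 (52.2% of all genes) and 2 above, with a median of -0.23 beside -0.01 over all genes, and the groups overlapped for all 9 (19.7% of all genes did not overlap). Spironolactone against vehicle also gave 0 calls of 9 by edgeR, DESeq2, and limma-voom, against 0.0181% of all genes by edgeR. Only *C1qb* had an unadjusted *P* under 0.05 there (9.29% of all genes, 5.21% higher), and only *C1qb* did not overlap (13.5% of all genes, 6.99% higher), and the median was 0.04 beside 0.00 over all genes. Between the drugs, 7 members were above 0 and 2 (*C3* and *C5ar1*) below (46.6% of all genes), with a median of 0.48 beside 0.03. In that comparison 6 of 9 members did not overlap, 4 higher and 2 lower with spironolactone, against 30.3% of all genes (15.1% higher and 15.2% lower). The 3 *C1q* genes are chains of 1 protein and follow each other, so these counts are not of independent genes.

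**Figure D4:**
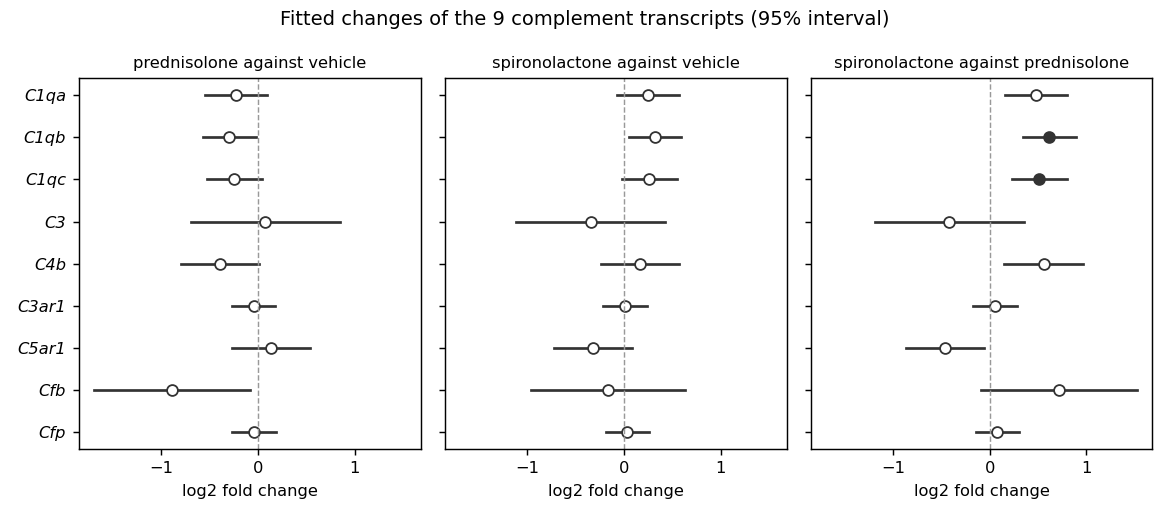
Fitted log2 fold changes with 95% intervals of the 9 members in each comparison (edgeR), with filled points for an adjusted *P* under 0.05. The filled points are *C1qb* (0.62) and *C1qc* (0.51) between the drugs, and no point is filled against vehicle.

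The genes whose log2 CPM ran most like the members over the 9 libraries were looked up among 13231 tested genes with a mean of at least 1 CPM. For the mean of the *C1q* chains, these were *Acadm* (*r* = 0.98), *H2-Ke6* (0.97), *Commd9* (0.97), *Pink1* (0.96), and *Batf3* (0.96). For *C3* they included *Tarm1* (0.96) and *Adprh* (0.95). For *C5ar1* they were *Ubash3b* (0.95), *Gtpbp4* (0.95), and *Srebf2* (0.94), and for *C3ar1* they were *Siglec1* (0.93), *Tlr9* (0.90), and *Zkscan5* (0.90). For *Cfb* they were *Epsti1* (0.96), *Gm7072* (0.96), and *H2-T22* (0.95). For *C4b* they were *Hpse* (0.94), *Scarb1* (0.93), and *Bcl2l12* (0.93), and for *Cfp* they were *Gm5776* (0.97), *Rpl6l* (0.94), and *Rpl17-ps3* (0.94). These are the highest of many values over only 9 libraries that share treatments, and they are given as a description.

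A list of 42 other complement genes was described beside the members, and 27 of them passed the filter. Of the 15 that did not, 6 (*Mbl1*, *Mbl2*, *C8a*, *C8b*, *Cfi*, and *C4bp*) had 0 counts in all libraries, which allows a level of up to 0.0950 CPM in a library (3 counts). The most abundant gene was *C1ra* (12.3 TPM) for the classical proteases, *Colec12* (22.4 TPM) for the lectin pathway, *C8g* (3.36 TPM) for the terminal pathway, and *Itgb2* (1004 TPM) for receptors, and *Cfd*, encoding factor D, stood at 0.704 TPM. *C1qa* RNA, at 2228 TPM, was far above that of *C1ra*, whose product is a protease of the same C1 complex.

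Prednisolone against vehicle gave 1 call of 27 (1.76% of all genes), with 5 higher and 2 lower at an unadjusted *P* under 0.05 (14.2% of all genes). The gene called was *Itgax*, which encodes CD11c, the alpha chain of complement receptor CR4. It rose from 327 ± 6.24 to 569 ± 91.8 CPM, with a log2 fold change of 0.80 ± 0.15 (edgeR adjusted *P* = 0.0197) and every prednisolone pool above every vehicle pool. The 6 dendritic cell markers summed to 61.3 to 75.7 CPM with vehicle and 83.5 to 106.8 CPM with prednisolone, with 0 of 6 called. Marker sums also did not overlap for skeletal muscle (182 to 278 CPM with vehicle and 289 to 454 CPM with prednisolone, 0 called). They were lower with prednisolone for lymphocytes (3.22 to 5.45 and 1.41 to 2.97 CPM, 0 called). Mast cell and eosinophil markers were also lower (27.0 to 60.6 and 19.2 to 24.0 CPM), with *Siglecf* called lower (log2 fold change -0.65, edgeR adjusted *P* = 0.0377). The part of these markers in the *Itgax* difference was not tested. The *Itgax* call was lost without vehicle replicate 2 (0.0790), vehicle replicate 3 (0.0648), prednisolone replicate 2 (0.117), or prednisolone replicate 3 (0.0692). Spironolactone against vehicle gave 0 calls of 27 by edgeR, with 5 at an unadjusted *P* under 0.05 (9.29% of all genes), and 2 were called by DESeq2 on all libraries and 0 by limma-voom. Among them, *Clu* stood at 3.997 ± 0.960 CPM with vehicle and 8.92 ± 0.91 CPM with spironolactone, without overlap (log2 fold change 1.16 ± 0.22, adjusted *P* = 0.106 by edgeR and 0.000271 by DESeq2). Every spironolactone pool was also above every vehicle pool in the summed endothelial (vehicle 46.8 to 82.6 CPM), skeletal muscle (341 to 568 CPM beside 182 to 278 CPM), erythroid (vehicle 59.5 to 115.7 CPM), and lymphocyte markers (vehicle 3.22 to 5.45 CPM), with 0 of these markers called, and their part in the *Clu* difference was not tested.

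Between the drugs, 6 of the 27 were called by edgeR (5.17% of all genes), and with spironolactone 2 of them were higher (2.38% of all genes) and 4 lower. Higher were *Clu*, encoding the fluid-phase inhibitor clusterin (8.92 ± 0.91 and 3.22 ± 0.61 CPM, log2 fold change 1.47 ± 0.22, adjusted *P* = 0.00327), and *Cd55*, encoding decay-accelerating factor (4.45 and 2.02 CPM, 1.14 ± 0.27, 0.0303). Lower were the integrin receptor genes *Itgax* (-0.68 ± 0.15, 0.0238), *Itgam* (-0.43 ± 0.11, 0.0353), and *Itgb2* (-0.41 ± 0.11, 0.0430), and the scavenger receptor gene *Colec12* (-0.39 ± 0.10, 0.0407). *Itgam* encodes CD11b, the marker used to sort the cells, and pairs with the *Itgb2* product as complement receptor CR3. Classical monocyte marker sums were also lower in every spironolactone pool (1494 to 1761 CPM) than in any prednisolone pool (2065 to 2805 CPM), with 0 of 6 called. Their part in the differences of the genes called lower was not tested. The endothelial, lymphocyte, and erythroid marker sums, given above, were also higher in every spironolactone pool than in any prednisolone pool, as for *Pecam1* (1.09 ± 0.18, adjusted *P* = 0.00729), and their part in the *Clu* and *Cd55* differences was not tested. Only *Clu* was still called in each of the fits without 1 library. Without 1 pool of the drug groups or vehicle replicate 2, the highest adjusted *P* reached 0.138 for *Cd55*, 0.100 for *Itgax*, 0.146 for *Itgam*, 0.140 for *Itgb2*, and 0.156 for *Colec12*, and the number called fell to between 1 and 5 in these fits. With the *Xist* covariate, the calls of *Cd55* (0.0532), *Itgam* (0.0596), *Itgb2* (0.0625), and *Colec12* (0.0543) were lost.

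**Figure D5:**
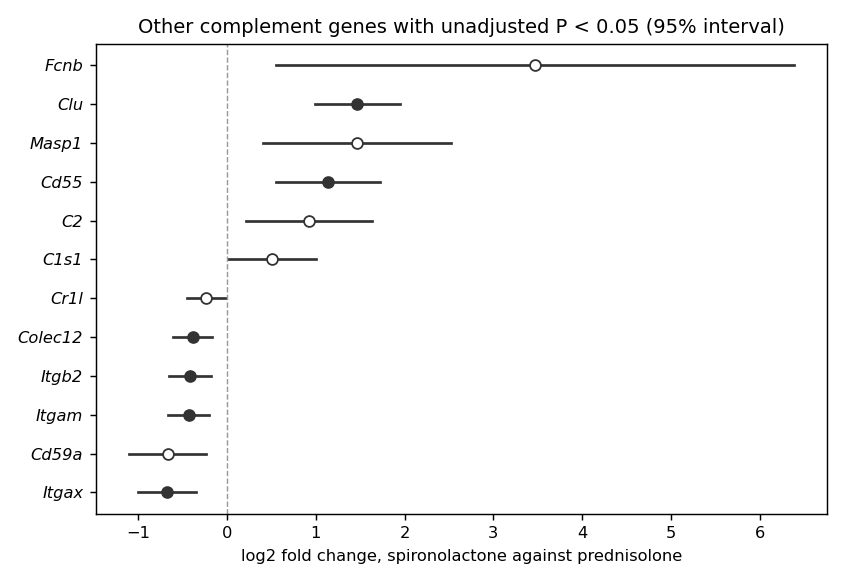
Fitted log2 fold changes with 95% intervals for spironolactone against prednisolone (edgeR) of the other complement genes with an unadjusted *P* under 0.05 (6 higher and 6 lower), ordered by value, with filled points for an adjusted *P* under 0.05. *Clu* and *Cd55* are the filled points above 0, and *Colec12*, *Itgb2*, *Itgam*, and *Itgax* those below.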

How the data were processed

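RNA-Seq of sorted myeloid cells was analysed from 9 libraries, 3 per group. Reads were aligned by the authors to mm39 and counted per gene, with HISAT2 2.2.1 and HTSeq 0.11.3 in the submitters' processing notes, and the deposited counts are whole numbers without normalization; the annotation release and strand setting were not given in the sources used here. The 5 closing lines of each file that name no gene held 17.2% to 21.8% of the total and were left out. The deposited tables of the authors' own comparisons, with fold changes and p-values, were not used. The members and lists were chosen with earlier results of these data known.

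All genes that passed filterByExpr (minimum count 10, minimum total 15) were tested with the two-sided quasi-likelihood test of edgeR 4.0.16 (R 4.3.3, TMM, robust=TRUE, all 9 libraries in one fit) and Benjamini-Hochberg adjustment over 16618 genes, with a threshold of 0.05. Levels are TMM-scaled CPM, and errors are SD unless called SE. TPM used canonical-transcript exon lengths of GENCODE on GRCm39. Correlations used log2 CPM (prior count 2), with two-sided exact permutation over all pairings. Alternatives were DESeq2 1.42.0, limma-voom (limma 3.58.1), edgeR on 2 groups, other scalings and filters, a non-robust fit, the *Xist* level as covariate, replicate numbers as a block, adjusted *P* under 0.01, and leaving out each library. The scripts were tested on simulated data. Replicates are separate pools of mice.

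The named genes are all members, and of 42 other complement genes those with an adjusted *P* under 0.05, the 6 with the smallest *P*, and the most abundant of each role. Some genes that these rules name are not reported here. Likeness names were the 5 (for *C1q*) or 3 highest Pearson's *r*; motifs were searched on both strands of 250 bases before the start.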

Additional observations from a re-analysis of the deposited data

Results flagged for a closer look

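*C1qb* (log2 fold change 0.62) and *C1qc* (0.51) are listed here because their responses to the drugs differed from each other by a direct test, spironolactone against prednisolone, while neither drug alone passed the threshold against vehicle. All 3 spironolactone pools were above all 3 prednisolone pools for both genes. The vehicle pools are shared by both drug comparisons. They enter the direct contrast through the shared filter, scaling, and estimate of spread.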

How the results depend on the processing

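The call of *C1qb* between the drugs held in 12 of 12 alternatives of method, scaling, filter, block, or covariate (adjusted *P* 8.27e-06 to 0.0218), and in 5 of 9 fits without 1 library. *C1qc* held in 9 of 12 and was lost with library totals (0.0595), the replicate block (0.0511), and the *Xist* covariate (0.0593). The number of members called between the drugs, 2 in the reported fit, was 3 with edgeR on 2 groups, 3 with DESeq2 on all libraries, 2 with limma-voom, 6 with DESeq2 on 2 groups, 7 with no filter on low counts, 1 with library totals, 1 with the replicate block, 1 with the *Xist* covariate, 0 at an adjusted *P* under 0.01, and 0 to 3 without 1 library. Prednisolone against vehicle gave 1 member (*Cfb*, edgeR adjusted *P* 1.96e-12) with no filter and 0 otherwise, and the cause was not tested. Over all genes, the fit with no filter called 1019 in this comparison, beside 293 in the reported fit. A member passing only with no filter is therefore weak evidence of a difference.

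Of the other complement genes, the calls for prednisolone against vehicle (1) became 3 with DESeq2 on all libraries, 3 with DESeq2 on 2 groups, 5 with no filter, 0 at an adjusted *P* under 0.01, and 0 to 1 without 1 library. For spironolactone against vehicle (0) they became 2, 1, and 3 with DESeq2 on all libraries, DESeq2 on 2 groups, and no filter. Between the drugs (6) they became 2 with the *Xist* covariate, 1 at an adjusted *P* under 0.01, and 1 to 7 without 1 library.

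Small differences against vehicle changed sign without 1 library: with prednisolone, *C3* ranged from -0.24 to 0.37, *C3ar1* from -0.13 to 0.025, *C5ar1* from -0.084 to 0.29, and *Cfp* from -0.13 to 0.017. With spironolactone, *C4b* ranged from -0.015 to 0.30, *C3ar1* from -0.055 to 0.079, *Cfb* from -0.40 to 0.097, and *Cfp* from -0.054 to 0.098. Between the drugs, *C3ar1* ranged from -0.017 to 0.13, and with library totals *C3ar1* with spironolactone against vehicle was -0.0022. Over all genes, the share of calls between the drugs that were higher with spironolactone was 46.0% in the reported fit, 53.3% with upper quartile scaling, and 35.7% with library totals.

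Deviations of same-numbered libraries correlated at -0.07 to 0.26, and those of differently numbered libraries at -0.20 to 0.09. The highest value, 0.26, was between vehicle replicate 3 and spironolactone replicate 3. With so few pairs, these values cannot settle whether the replicate numbers pair the libraries. With the replicate block, 1082 genes were called between the drugs, beside 859 without it. With 3 pools per group, intervals are wide for *C3* and *Cfb*. The 15 other complement genes left untested had at most 55 counts in a library, and they were not tested.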
